A study of Homo sapiens with 12 samples.

Results

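The 10 chemoattractant receptor genes examined here, FPR1, FPR2, FPR3, CXCR1, CXCR2, CXCR4, C5AR1, C3AR1, LTB4R and CCR1, were chosen by name out of the 59251 genes in the count table. RNA-Seq was performed in HL60, a human myeloid leukemia line, grown in RPMI1640 with 10% FBS. Cells received 1 µM ATRA (all-trans retinoic acid, which drives these cells towards granulocytes), 1 µM palbociclib (an inhibitor of the G1 kinases CDK4 and CDK6, here CDK4/6i), both drugs together (CDK4/6i+ATRA) or no drug (non-treated), and RNA was taken at 48 h. Each of the 4 groups held 3 libraries, labelled as biological replicates of this single cell line, 12 in all.

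These receptors span the membrane of leukocytes, couple mainly to inhibitory G proteins, and turn a gradient of ligand into directed movement, adhesion and release of granules and oxidants. FPR1 and FPR2 bind formylated bacterial and mitochondrial peptides, FPR3 responds poorly to these and binds a peptide cleaved from HEBP1, C5AR1 and C3AR1 bind the complement fragments C5a and C3a, and LTB4R binds leukotriene B4. CCR1 binds CC chemokines such as CCL3 and CCL5, CXCR1 and CXCR2 bind CXCL8, and CXCR4 binds CXCL12, through which it holds immature cells in the bone marrow. Kinases of the GRK family, the arrestins and the RGS proteins end their signals.

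Total counts were between 12230923 and 18679544 per library, and a floor of 3 counts corresponded to 0.156 to 0.275 CPM (counts scaled to a common library total), and a gene below it could not be told from 0. CPM values are scaled by TMM, which corrected for composition with factors of 0.84 to 0.89 in the CDK4/6i+ATRA libraries and 1.03 to 1.07 in the others. MPO, the myeloperoxidase of promyelocytes, was at 6517 CPM without drug, 293 after ATRA, 3469 after CDK4/6i and 28.0 after both. The 8 promyelocyte markers did not all move with it, since SPI1 was at 302, 463, 362 and 855 CPM and CD33 at 93.9, 77.9, 118 and 99.8 CPM in these groups, and the list summed to 6750 to 7083, 822 to 865, 3901 to 4030 and 960 to 1008 CPM. ELANE, PRTN3 and AZU1 were listed at 0 in every library and are also placed on a second contig in the table, so they checked nothing. The summed level of 9 mature neutrophil markers, 5 of which passed 1 CPM in some library, ranged over the 3 libraries from 90.9 to 97.7 CPM without drug, 2487 to 2633 after ATRA, 266 to 279 after CDK4/6i and 7372 to 7905 after both, carried after ATRA and after both mainly by S100A8, S100A9 and ITGAM, while LCN2, LTF and FCGR3B stayed at 5 counts or fewer. CSF3R, the G-CSF receptor, was the second largest of these markers without drug (38.8 CPM, beside 39.3 for S100A9) and after CDK4/6i (71.5, beside 127), and was at 97.3 CPM after ATRA and 116 after both. The 9 monocyte and macrophage markers summed to 54.8 to 61.8, 70.1 to 79.1, 107 to 111 and 117 to 131 CPM in the same order, with CD14 at 5 counts or fewer and CD163 at 1 or fewer. The 7 lymphocyte markers summed to at most 31.4 CPM, most of it CD79A (14.2 to 23.7 CPM by group) with some NKG7 (1.28 to 5.21) and CD3E (0.813 to 2.99), and MS4A1 at 0. The 6 stromal and endothelial markers summed to at most 31.3 CPM, almost wholly PECAM1, with COL1A2 and EPCAM at 0. The 6 erythroid and megakaryocyte markers summed to at most 9.99 CPM, almost wholly ITGA2B, which was at 2.01 CPM without drug, 3.13 after ATRA, 7.63 after CDK4/6i and 8.93 after both, with HBB at 0. Whether the changes in these markers have a part in the receptor values was not tested, and in bulk RNA more expressing cells and more RNA per cell cannot be told apart.

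In the deposited positions (hg38) the formyl peptide receptors lie side by side on chromosome 19, FPR1 at chr19:51745172-51751878, FPR2 at chr19:51761180-51770531 and FPR3 at chr19:51795157-51826190. C5AR1 is on the same chromosome at chr19:47307477-47322066. CXCR2 at chr2:218125294-218137251 and CXCR1 at chr2:218162841-218166962 are neighbours, and CXCR4 is at chr2:136114349-136118149. C3AR1 is at chr12:8056844-8066359, LTB4R at chr14:24311502-24318036 and CCR1 at chr3:46201711-46208313. Counts were taken over 2 to 5 exon blocks per gene. LTB4R is listed a second time on a patch contig, which doubles its deposited length to 9234 bases, so 4617 was used for levels per kb. Whether reads that align to both copies were counted is not given in the sources used here, so the level, rank and share of LTB4R may be understated. Of 47 other genes listed on the same patch contig and chromosome 14, 35 held at least 1 count. The largest total among them was 19109. How many LTB4R reads were affected was not tested. LTB4R also shares 303 bases on the same strand with LTB4R2, which held 119 counts over the 12 libraries against 11097 for LTB4R.

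RefSeq promoter windows, 250 bases before to 50 after the start site on hg38, were at hand for 9 of the 10 genes (12 windows) and not for FPR3. They are printed for FPR1, CCR1 and C5AR1, which had the largest fold changes with both drugs, and for CXCR4, which did not follow them. CXCR4 has further windows that are not printed. Capitals mark the ETS motif AGGAAG and the C/EBP motif (a pair of T and a pair of A around N, N, G and N), either on either strand.

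FPR1 (chr19:51751829-51752128, minus strand): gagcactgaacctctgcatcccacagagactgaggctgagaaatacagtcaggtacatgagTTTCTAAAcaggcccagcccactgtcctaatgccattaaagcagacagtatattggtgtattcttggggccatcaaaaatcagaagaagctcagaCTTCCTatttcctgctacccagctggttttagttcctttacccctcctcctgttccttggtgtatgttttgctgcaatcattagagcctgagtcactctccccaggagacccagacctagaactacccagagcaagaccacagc

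CCR1 (chr3:46208264-46208563, minus strand): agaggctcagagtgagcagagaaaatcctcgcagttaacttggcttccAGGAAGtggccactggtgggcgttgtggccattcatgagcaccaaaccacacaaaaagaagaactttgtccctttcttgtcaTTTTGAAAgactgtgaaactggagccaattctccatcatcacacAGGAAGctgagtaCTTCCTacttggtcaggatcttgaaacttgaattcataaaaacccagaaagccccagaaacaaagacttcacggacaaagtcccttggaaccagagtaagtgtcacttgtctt

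C5AR1 (chr19:47309611-47309910, plus strand): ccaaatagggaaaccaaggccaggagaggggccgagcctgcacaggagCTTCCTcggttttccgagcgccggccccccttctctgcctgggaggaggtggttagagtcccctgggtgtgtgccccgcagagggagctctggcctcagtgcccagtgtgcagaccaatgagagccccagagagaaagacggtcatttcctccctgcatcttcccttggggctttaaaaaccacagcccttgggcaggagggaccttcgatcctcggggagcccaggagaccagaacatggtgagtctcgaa

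CXCR4 (chr2:136118100-136118399, minus strand): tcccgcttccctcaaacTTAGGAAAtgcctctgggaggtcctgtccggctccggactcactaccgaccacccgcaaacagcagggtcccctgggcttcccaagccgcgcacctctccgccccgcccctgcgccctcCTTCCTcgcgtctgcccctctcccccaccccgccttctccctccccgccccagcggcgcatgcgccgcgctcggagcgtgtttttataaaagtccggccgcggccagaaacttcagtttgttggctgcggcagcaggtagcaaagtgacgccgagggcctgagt

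AGGAAG was present in 9 of the 12 windows, belonging to 7 genes, against 33.6% of all 35116 RefSeq promoter windows. The C/EBP motif was present in 8 windows of 7 genes, against 36.8% of all windows. FPR1 and CCR1 held both motifs, CXCR4 held both in this window, and C5AR1 held AGGAAG alone. In CCR1 the C/EBP match overlaps the letters TTTGAA of the CHR element, which were found in 6 windows of 5 genes and in 15.2% of all windows. The AP-1 letters TGANTCA were in 2 windows, those of FPR1 and C3AR1, against 7.71% of all. The FPR1 window held 0 CpG dinucleotides, that of CCR1 3, that of C5AR1 10 and the printed window of CXCR4 27. The CXCR4 windows not printed held 14 and 9. The median of all windows was 14, and 7 of the 12 windows held 5 or fewer CpG against 33.7% of all.

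The window of LTB4R, the receptor that rose with ATRA and fell with CDK4/6i, is shown with its retinoid half-site AGTTCA, read on the reverse strand, in capitals.

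LTB4R (chr14:24312857-24313156, plus strand): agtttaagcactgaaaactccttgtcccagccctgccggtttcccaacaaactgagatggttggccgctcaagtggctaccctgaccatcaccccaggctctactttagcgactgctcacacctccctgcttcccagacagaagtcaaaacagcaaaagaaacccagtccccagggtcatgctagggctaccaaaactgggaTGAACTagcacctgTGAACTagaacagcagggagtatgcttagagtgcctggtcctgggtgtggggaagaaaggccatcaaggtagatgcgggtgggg

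The half-site AGTTCA occurred at 2 places in LTB4R, and in 4 windows of 4 genes (LTB4R, CXCR4, CXCR2 and FPR2), against 10.4% of all windows. The CXCR4 match lies in a window that is not printed. The other retinoid half-site, AGGTCA, was in 1 window, that of C3AR1, against 13.8% of all. A match describes these letters in this window and is not evidence of binding.

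Of the 10 receptors, 9 passed the filter on low counts and were tested with edgeR's quasi-likelihood test. FPR3 had 4 counts in all 12 libraries together and at most 2 in any, under the floor, so no fold is given. With ATRA against non-treated cells 9 receptors passed the threshold upwards and 0 downwards, and their median log2 fold change was 1.68, while 67.6% of the 13318 tested genes were called (32.1% higher, 35.5% lower) with a median of -0.03. With CDK4/6i against non-treated cells 7 went up and 1, LTB4R, went down, the median being 0.49, against a background of 56.2% called (28.3% higher, 27.9% lower). When both drugs were compared with no drug, 8 went up and 0 down, the median being 2.72, against 81.7% of all genes called (41.0% higher, 40.7% lower) and an all-gene median of 0.02. The call nearest the threshold was CXCR1 (adjusted p = 0.0467), which was lost without the low-count filter, in DESeq2, with the replicate block and on the compared groups alone, leaving 7. With library size alone in place of TMM, 6 were higher and 1 lower, as CXCR1 and CXCR4 were not called and CXCR2 was called lower. The 3 comparisons share the non-treated libraries, and the p-values measure the spread between libraries of 1 cell line.

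**Figure D1:**
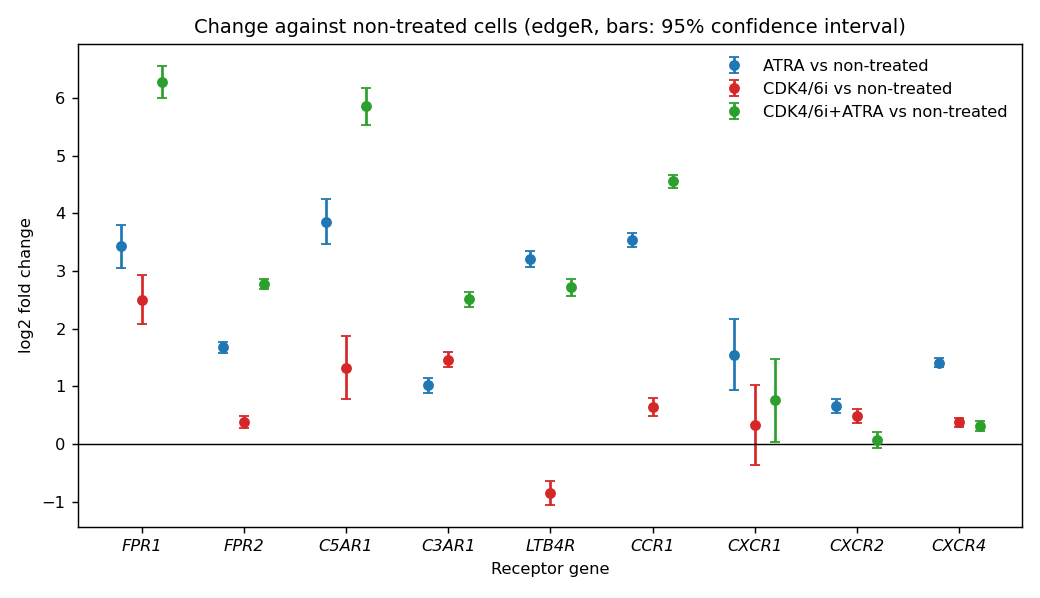
Log2 fold change (vertical axis) of the 9 tested receptors (horizontal axis) against non-treated cells for ATRA (blue), CDK4/6i (red) and CDK4/6i+ATRA (green), with 95% confidence intervals from edgeR. FPR1 and C5AR1 reach 6.28 and 5.85 with both drugs, LTB4R is below 0 with CDK4/6i alone at -0.84, and the interval of CXCR2 with both drugs spans 0.

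Adding CDK4/6i to ATRA split the receptors. Against ATRA alone, 5 were called higher with both drugs (FPR1, FPR2, C5AR1, C3AR1 and CCR1) and 4 lower (CXCR1, CXCR2, CXCR4 and LTB4R), where 69.8% of all genes were called (36.9% higher, 32.8% lower), and the medians were 1.02 and 0.04. Against CDK4/6i alone, 6 were called higher and 1, CXCR2, lower, where 78.6% of all genes were called (39.1% higher, 39.5% lower), with a receptor median of 2.39, and library size alone in place of TMM added CXCR4 to the lower calls (6 higher, 2 lower). The interaction, the log2 effect of ATRA with CDK4/6i minus its effect without, was called positive for 3 receptors (FPR2, LTB4R and CCR1) and negative for 3 (CXCR1, CXCR2 and CXCR4), against 51.4% of all genes (24.5% positive, 27.0% negative). With library size alone in place of TMM, 1 receptor was called positive and 4 negative, as LTB4R and CCR1 lost their calls and C3AR1 turned negative. The positive call left was FPR2, at 0.40 where TMM gave 0.71.

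**Figure D2:**
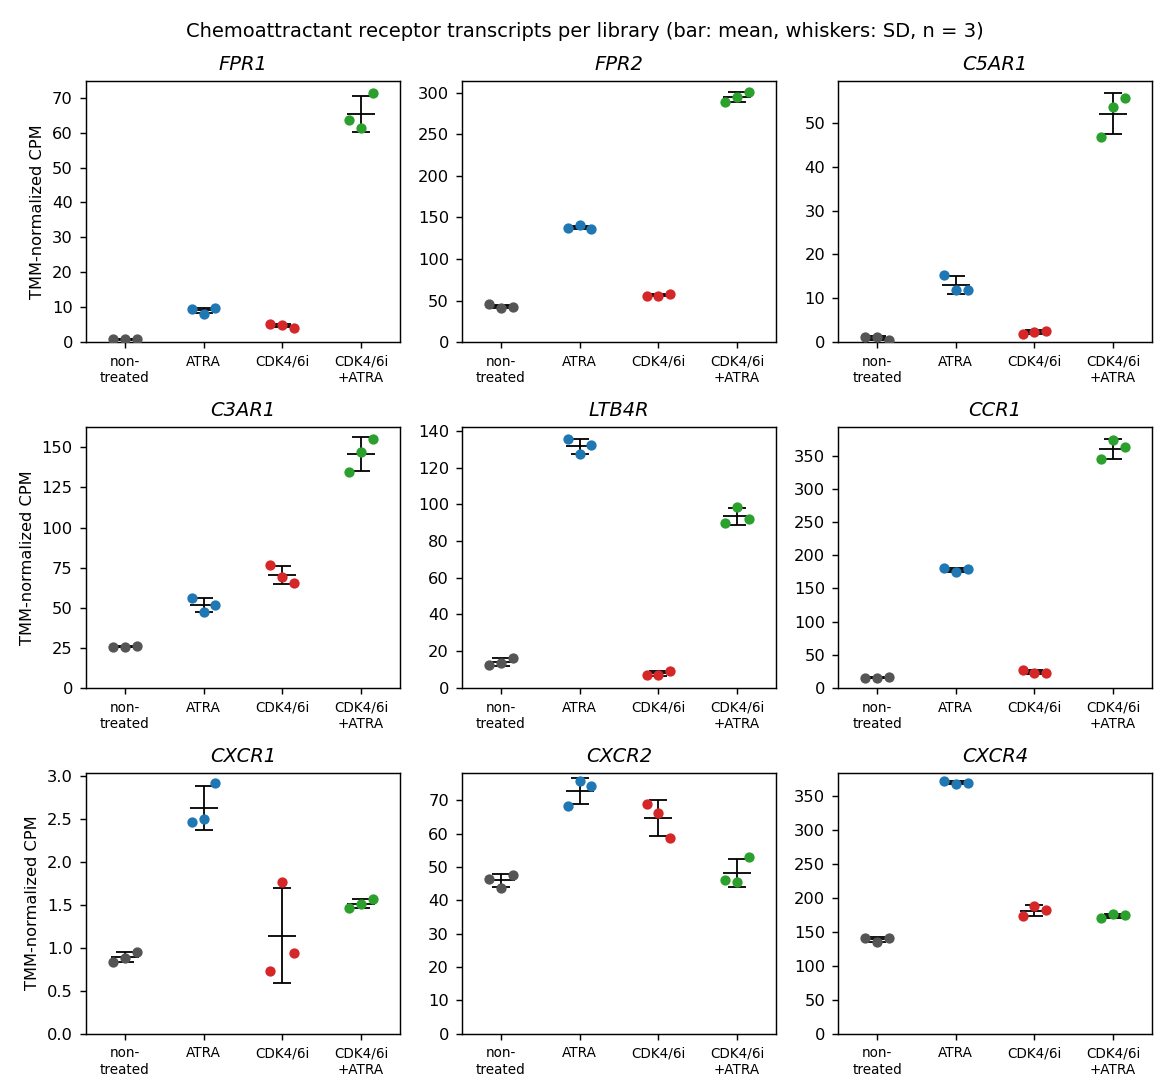
TMM-normalized CPM (vertical axis, from 0) of the 9 tested receptors in each library (points), by group (horizontal axis), with the mean (long bar) and SD (whiskers) of 3 libraries. FPR1, FPR2, C5AR1, C3AR1 and CCR1 are highest with CDK4/6i+ATRA, whereas CXCR1, CXCR2, CXCR4 and LTB4R are highest with ATRA alone.

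FPR1, the high-affinity receptor for formylated peptides, went from near the floor to a well detected transcript. Its 3 non-treated libraries held 0.781, 0.941 and 0.788 CPM (13, 15 and 14 counts), those with ATRA 9.43, 8.16 and 9.67, those with CDK4/6i 5.24, 4.89 and 4.15, and those with CDK4/6i+ATRA 63.7, 61.3 and 71.2. No library of any group overlapped another group. The rise was 10.8-fold with ATRA (log2 fold change 3.43 ± 0.18, standard error, adjusted p = 3.58e-22), 5.68-fold with CDK4/6i (2.51 ± 0.21, adjusted p = 1.23e-14) and 77.7-fold with both (6.28 ± 0.14, adjusted p = 2.62e-39). In rank, FPR1 was number 106 from the top of the 13318 genes with CDK4/6i, number 341 with ATRA and number 214 with both. Mean CPM with both drugs was 65.4 ± 5.17 (SD, n = 3), where the product of the separate folds would give 51.7 CPM, and the interaction of 0.34 (95% interval -0.22 to 0.90, adjusted p = 0.32) was not called. The FPR1 interaction was 0.02 (adjusted p = 0.972) with library size alone.

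FPR2, which binds formylated peptides with lower affinity as well as annexin A1 and serum amyloid A, was already abundant. It was at 45.4, 41.6 and 42.4 CPM in non-treated libraries, 137, 140 and 137 with ATRA, 55.8, 55.4 and 57.5 with CDK4/6i, and 289, 295 and 301 with both drugs. The 4 groups did not overlap. FPR2 rose 3.20-fold with ATRA (log2 1.68 ± 0.04, adjusted p = 1.17e-34) and 1.30-fold with CDK4/6i (0.38 ± 0.05, adjusted p = 3.44e-09), and 6.84-fold with both (2.77 ± 0.04, adjusted p = 3.83e-45). Added to ATRA, CDK4/6i raised FPR2 2.14-fold, against 1.30-fold on its own, and this difference was called (interaction 0.71 ± 0.06, adjusted p = 6.42e-14). This interaction of FPR2 was 0.40 with library size alone and still called (adjusted p = 7.56e-07). Per kb of exon, FPR2 exceeded FPR1 by a ratio of 48.4 without drug, 14.2 with ATRA, 11.1 with CDK4/6i and 4.21 with both. Of the 31-base stretches of FPR1 transcripts, 26 (1.4%) also occur in C5AR2, 14 (0.753%) in FPR2, 7 (0.376%) in FPR3 and 3 (0.161%) in CXCR2.

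C5AR1, the receptor for the anaphylatoxin C5a, resembled FPR1 in level and direction. The non-treated libraries held 1.20, 1.07 and 0.451 CPM (20, 17 and 8 counts), those with ATRA 15.4, 11.9 and 11.99, those with CDK4/6i 1.87, 2.32 and 2.63, and those with both 46.8, 53.8 and 55.7. Again the groups did not overlap, although the non-treated spread was wide (SD 44.2% of the mean). The rise was 14.5-fold with ATRA (log2 3.86 ± 0.19, adjusted p = 1.44e-23), 2.51-fold with CDK4/6i (1.33 ± 0.28, adjusted p = 4.83e-05) and 57.8-fold with both (5.85 ± 0.16, adjusted p = 3.4e-35). Its interaction of 0.67 (95% interval 0.03 to 1.31) had an adjusted p of 0.0767, and without the third non-treated library, the one with 8 counts, it was 1.01 with an adjusted p of 0.00926. It also passed the threshold without ATRA replicate 1 (adjusted p = 0.0306) and without CDK4/6i+ATRA replicate 1 (adjusted p = 0.0449). In the other direction the C5AR1 interaction was 0.35 with library size alone (adjusted p = 0.37) and 0.40 without non-treated replicate 1 (adjusted p = 0.426).

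C3AR1, the receptor for C3a, was the only tested receptor whose CDK4/6i libraries all lay above its ATRA libraries. Its levels were 25.5, 25.3 and 26.0 CPM in non-treated libraries, 56.3, 47.6 and 51.7 with ATRA, 76.8, 69.4 and 65.4 with CDK4/6i, and 135, 147 and 155 with both drugs. Each group stood clear of the others. C3AR1 rose 2.76-fold with CDK4/6i (log2 1.46 ± 0.06, adjusted p = 3.91e-25), 2.02-fold with ATRA (1.02 ± 0.07, adjusted p = 1.17e-18) and 5.70-fold with both (2.51 ± 0.06, adjusted p = 1.29e-36). The mean with both drugs, 146 ± 10.5 CPM, lay beside the 143 CPM that the product of the separate folds gives, and the interaction was 0.03 (95% interval -0.15 to 0.21, adjusted p = 0.813). This near-zero value depends on the scaling, since library size alone in place of TMM gave -0.29 (adjusted p = 0.00414).

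LTB4R, the high-affinity receptor for leukotriene B4, was moved in opposite directions by the separate drugs. Non-treated libraries held 12.4, 13.6 and 16.3 CPM, those with ATRA 135, 127 and 132, those with CDK4/6i 7.26, 6.97 and 9.48, and those with both 89.6, 98.7 and 92.1. The CDK4/6i libraries were all below the non-treated ones, and the CDK4/6i+ATRA libraries were all below those with ATRA. LTB4R rose 9.29-fold with ATRA (log2 3.22 ± 0.07, adjusted p = 5e-39), was 1.79-fold lower with CDK4/6i (-0.84 ± 0.10, adjusted p = 1.16e-09) and was 6.60-fold higher with both (2.72 ± 0.07, adjusted p = 2e-35). Against ATRA alone, both drugs gave 1.41-fold less LTB4R (-0.49 ± 0.05, adjusted p = 2.97e-11), a log2 difference that was -0.80 with library size alone. The interaction of 0.35 ± 0.12 was called (adjusted p = 0.0116) but not with library size alone (0.03, adjusted p = 0.855), without the low-count filter (0.26, adjusted p = 0.0883), leaving out non-treated replicate 3 (0.23, adjusted p = 0.119), or leaving out CDK4/6i replicate 1 (0.29, adjusted p = 0.0573) or replicate 2 (0.27, adjusted p = 0.073).

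CCR1, a receptor for CCL3, CCL5 and other CC chemokines on monocytes and neutrophils, became 1 of the 2 most abundant receptors. It was at 15.3, 14.6 and 16.1 CPM in non-treated libraries, 181, 175 and 179 with ATRA, 27.1, 22.2 and 22.1 with CDK4/6i, and 344, 374 and 363 with both. No groups overlapped. The rise was 11.6-fold with ATRA (log2 3.54 ± 0.06, adjusted p = 8.6e-44), 1.56-fold with CDK4/6i (0.64 ± 0.08, adjusted p = 4e-10) and 23.5-fold with both (4.55 ± 0.06, adjusted p = 1.47e-49). The interaction was 0.38 ± 0.09 (adjusted p = 0.000282) under TMM, and 0.06 (adjusted p = 0.58) with library size alone.

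CXCR4, which binds CXCL12, was the most abundant receptor in non-treated cells and showed the most negative interaction of the tested receptors. Its libraries were at 141, 135 and 141 CPM without drug, 372, 367 and 369 with ATRA, 173, 189 and 182 with CDK4/6i, and 170, 175 and 174 with both drugs. The CDK4/6i+ATRA values overlapped those of CDK4/6i alone and lay far below ATRA alone. CXCR4 rose 2.66-fold with ATRA (log2 1.41 ± 0.04, adjusted p = 1.09e-34) and 1.30-fold with CDK4/6i (0.38 ± 0.04, adjusted p = 4.86e-12), yet both drugs together gave 173 ± 3.09 CPM (SD, n = 3), where the product of the separate folds would give 482 CPM. In cells given CDK4/6i, ATRA left CXCR4 at -0.06 ± 0.04 on the log2 scale (95% interval -0.14 to 0.02, adjusted p = 0.132). The interaction of -1.47 ± 0.05 had an adjusted p of 7.26e-28 and ranked number 878 from the bottom of 13318 genes. Under library size alone the small rise with both drugs against non-treated cells (0.32, adjusted p = 8.29e-10) became 0.05 (adjusted p = 0.22), and the difference from CDK4/6i alone became -0.34 (adjusted p = 4.58e-10). Without the low-count filter the rise was 0.21 and still called, and the difference from CDK4/6i alone was called as well (-0.17, adjusted p = 0.00153).

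CXCR2, the main CXCL8 receptor of these cells by transcript level, behaved in a similar way. It was at 46.5, 43.8 and 47.6 CPM in non-treated libraries, 68.3, 75.7 and 74.2 with ATRA, 69.0, 66.2 and 58.7 with CDK4/6i, and 46.1, 45.6 and 53.1 with both. Each drug alone lifted all 3 libraries above the non-treated range, whereas the libraries with both drugs overlapped it. The rise was 1.58-fold with ATRA (log2 0.66 ± 0.06, adjusted p = 4e-14) and 1.41-fold with CDK4/6i (0.49 ± 0.06, adjusted p = 7.28e-10). With both it was 0.07 ± 0.07 (95% interval -0.06 to 0.20, adjusted p = 0.315), a value that turned to -0.20 (adjusted p = 0.00718) with library size alone, to -0.04 without the low-count filter and to -0.0051 without CDK4/6i+ATRA replicate 3. In the presence of CDK4/6i, ATRA lowered CXCR2 1.34-fold (-0.42 ± 0.06, adjusted p = 5.12e-08), so the interaction was -1.08 ± 0.09 (adjusted p = 2.63e-15). With library size alone the effect of ATRA on CXCR2 in cells given CDK4/6i was -0.70.

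CXCR1, the second CXCL8 receptor, was detected at low counts. The non-treated libraries held 14, 14 and 17 counts (0.841, 0.878 and 0.957 CPM), those with ATRA 40, 43 and 53 (2.47, 2.51 and 2.93 CPM), those with CDK4/6i 14, 29 and 16 (0.726, 1.77 and 0.936 CPM) and those with both 16, 17 and 19 (1.47, 1.52 and 1.57 CPM). Only the ATRA libraries stood clear of all others, and CDK4/6i replicate 2 stood above the rest of its group. The rise with ATRA was 2.94-fold (log2 1.55 ± 0.31, adjusted p = 1.5e-05). The change with CDK4/6i was 0.33 (95% interval -0.37 to 1.03, adjusted p = 0.435) and turned to -0.11 without CDK4/6i replicate 2. The value with both drugs against non-treated cells (0.76 ± 0.36, adjusted p = 0.0467) stood at the threshold and was lost under most alternatives, DESeq2 (adjusted p = 0.052) among them, and in 9 of 12 fits that left out 1 library. The interaction of -1.12 ± 0.46 (adjusted p = 0.0373) was lost in 7 of these 12 fits and was -0.68 (adjusted p = 0.261) without CDK4/6i replicate 2. Against ATRA alone the difference of -0.79 ± 0.30 (adjusted p = 0.0174) was lost without ATRA replicate 3 (-0.71, adjusted p = 0.0634), and against CDK4/6i alone the value of 0.43 (adjusted p = 0.247) became 0.87 (adjusted p = 0.0349) without CDK4/6i replicate 2. CXCR1 and CXCR2 share 207 stretches of 31 bases (8.63% of those of CXCR1 and 6.97% of those of CXCR2). With CXCR2P1, CXCR2 shares 118 stretches (3.98%) and CXCR1 26 (1.08%). Reads from shared stretches fit each gene that holds them, so the counts of CXCR1 and CXCR2 are uncertain at least to that extent.

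**Figure D3:**
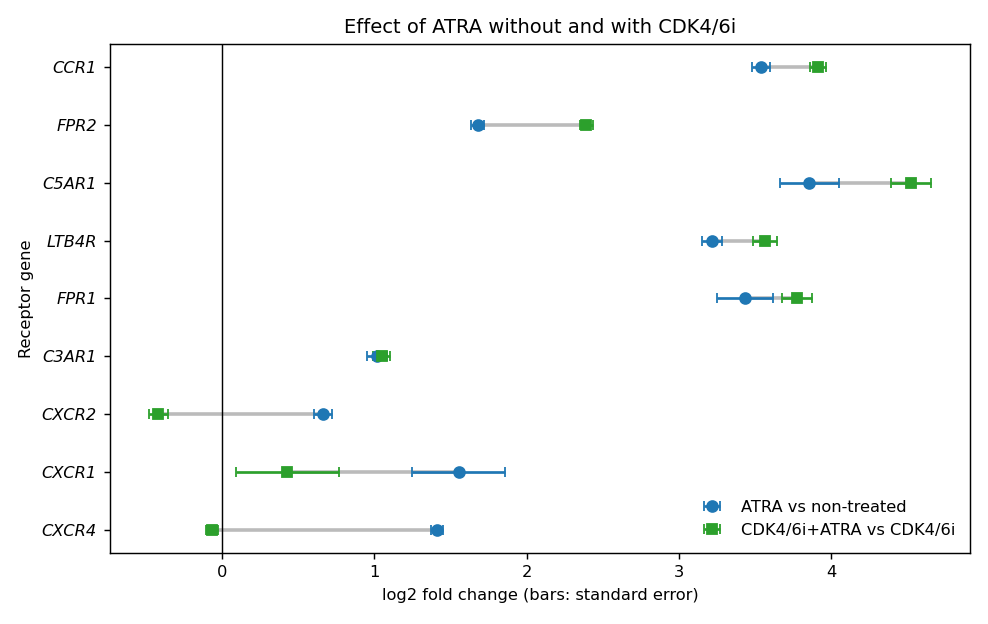
Log2 fold change on adding ATRA (horizontal axis, bars are standard errors) for each tested receptor (vertical axis), in cells without CDK4/6i (blue circles) and with it (green squares). For CXCR4 the effect is 1.41 without and -0.06 with CDK4/6i, for CXCR2 0.66 and -0.42, and for FPR2 1.68 and 2.39.

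The order of the receptors by CPM per kb of exon changed with treatment. In non-treated cells CXCR4 (49.1 CPM per kb) was followed by FPR2 (20.6), CXCR2 (14.8), C3AR1 (7.33), CCR1 (5.79) and LTB4R (3.06), each clear of the next, and then by FPR1 (0.43), C5AR1 (0.37) and CXCR1 (0.36), whose library ranges overlapped, with FPR3 last. With ATRA the order was CXCR4 (130), CCR1 (67.4) and FPR2 (65.8), the latter pair overlapping, then LTB4R (28.5), CXCR2 (23.3), C3AR1 (14.9), C5AR1 (5.36) and FPR1 (4.66), again an overlapping pair, and CXCR1 (1.07). With CDK4/6i it remained CXCR4 (64.0) and FPR2 (26.9) ahead of CXCR2 (20.7) and C3AR1 (20.2), which overlapped. With both drugs FPR2 (141) and CCR1 (136) overlapped at the top, followed by CXCR4 (61.2), C3AR1 (41.8), FPR1 (33.5), C5AR1 (21.3) and LTB4R (20.2), which overlapped, CXCR2 (15.5) and CXCR1 (0.617).

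Summed over the 10 genes, the level was 102 ± 2.79 CPM per kb without drug, 341 ± 3.19 with ATRA, 146 ± 2.78 with CDK4/6i and 471 ± 16.1 with both (SD, n = 3). CXCR4 made up 48.2% ± 0.11 of this sum without drug, 38.2% with ATRA, 43.7% with CDK4/6i and 13.0% ± 0.25 with both. FPR2 made up 20.2% without drug, 19.3% with ATRA, 18.4% with CDK4/6i and 29.9% with both, and CCR1 5.68%, 19.7%, 6.14% and 28.9% in the same order. FPR1 went from 0.423% without drug to 7.12% with both. CXCR2 fell from 14.5% to 3.28% of the sum although its own CPM was close to that of non-treated cells.

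**Figure D4:**
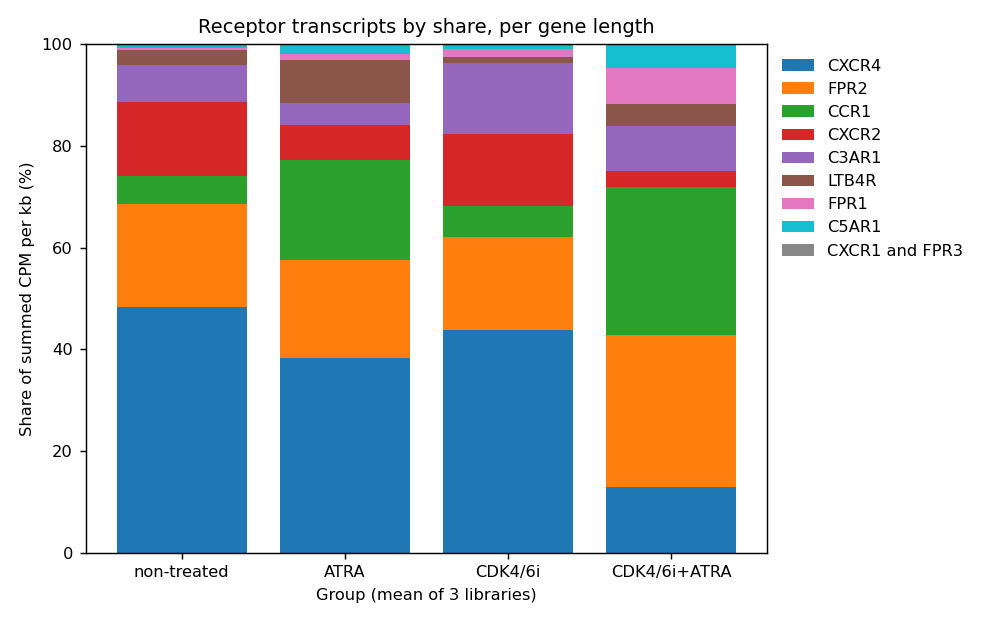
Share of the summed CPM per kb (vertical axis, percent) taken by each receptor in each group (horizontal axis, mean of 3 libraries). CXCR4 takes 48.2% in non-treated cells and 13.0% with CDK4/6i+ATRA, where FPR2 and CCR1 take 29.9% and 28.9%.

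The genes whose 3 changes against non-treated cells lay closest to each receptor's, by Euclidean distance of the log2 fold changes over genes with a mean of at least 5 CPM, were listed as a description over the 4 groups. For FPR1 these were CXCL8 (distance 0.49) and RGS1 (0.83), and for FPR2 SEC14L1 (0.12), SKIL (0.17) and ABHD2 (0.17). C5AR1 was nearest to LOC107985074 (0.23), TLR1 (0.35) and CD101 (0.40), C3AR1 to DLGAP4 (0.23), CNR2 (0.24) and TRPV2 (0.27), and CCR1 to SNN (0.37), ABCA1 (0.38) and TNFAIP2 (0.50). LTB4R had no close match, with SH3RF3 (0.69), PLEKHG2 (0.78) and KAT2B (0.78) the nearest. Among the CXC receptors, CXCR4 was nearest to ADA (0.40), LMO7 (0.45) and CASP1 (0.46), CXCR2 to CYFIP2 (0.11), CYSLTR1 (0.17) and CD244 (0.19), and CXCR1 to PLTP (0.20), CEBPE (0.31) and IL13RA1 (0.34).

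Of 20 other chemoattractant receptors, 13 passed the filter, and with both drugs against non-treated cells 10 rose and 1 fell, the median log2 fold change being 2.13. A gene near 0 in some groups passes the filter only where it is high, so these counts do not describe the receptors that failed it, such as CCR7 and ACKR3 at 0 counts. CXCR5, the receptor for CXCL13, was at 0.516 CPM without drug (5 to 14 counts), 142 with ATRA, 0.853 with CDK4/6i and 267 with both. GPR183, the oxysterol receptor, went from 86.7 CPM without drug to 8.43 with ATRA, 143 with CDK4/6i and 1.06 with both (log2 -6.36 with both, adjusted p = 6.83e-43), with an interaction of -3.71 (adjusted p = 8.2e-23).

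Of 24 ligands and ligand-making enzymes, 10 passed the filter, and with both drugs 8 were called higher and 1 lower, or 7 and 2 with library size alone. Their median log2 fold change was 3.34, or 2.75 with CCL7, which was at 0 counts in the other 3 groups, set to its bound of at least 11.5-fold. These values lean on genes that are near 0 in some groups, and over the 5 ligand genes with at least 10 counts in every library the median was 1.54, with 4 higher and 1 lower. Of the 14 that failed, MIF, CCL3 and ALOX5 are also listed on other contigs and were at or near 0, so their counts checked nothing, whereas CXCL12 and CXCL1 were at 0 without such a second listing. CXCL8, the neutrophil chemokine that both CXCR1 and CXCR2 bind, was at 66.2 ± 0.43 CPM without drug, 539 ± 38.1 with ATRA, 359 ± 16.4 with CDK4/6i and 6176 ± 133 with both (SD, n = 3). That is a log2 fold change of 6.54 with both drugs (adjusted p = 2.32e-55) and an interaction of 1.08 (adjusted p = 1.08e-18), whereas CXCR1 and CXCR2 had negative interactions. C3, the precursor of C3a, was at 0.388, 8.94, 1.11 and 21.9 CPM in the same order of groups (5.83 with both, adjusted p = 8.49e-29). HEBP1, whose cleaved peptide is a formyl peptide receptor ligand, fell by 1.70 on the log2 scale with both drugs (adjusted p = 8.09e-16).

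All 24 genes of the G protein and effector list passed the filter, and with both drugs 21 rose and 3 fell, the median being 0.92. With library size alone in place of TMM, 17 of them were higher and 6 lower. GNG2, a gamma subunit of G proteins, was at 1.95 CPM without drug, 433 with ATRA, 1.91 with CDK4/6i and 620 with both (log2 8.31, adjusted p = 4.36e-56). FGR, an SRC-family kinase, was at 6.54, 928, 13.6 and 1182 CPM (7.49, adjusted p = 9.77e-57). The alpha subunit GNA15 (-1.84, adjusted p = 2.95e-33) and the beta subunit GNB4 (-1.75, adjusted p = 1.12e-34) were lower.

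Of 14 genes that end receptor signals, 14 passed, and with both drugs 10 rose and 3 fell, the median being 0.78. The GTPase activators RGS2 (1.91 CPM in non-treated cells, 147 with both, log2 6.28, adjusted p = 4.06e-45) and RGS1 (0.618 and 28.3 CPM, 5.50, adjusted p = 6.96e-31) rose most. RGS16 (-3.08, adjusted p = 1.44e-20) and RGS18 (-0.61, adjusted p = 8.81e-11) fell, and RGS18 rose with CDK4/6i alone (1.07, adjusted p = 6.68e-22). All 4 lists, like the receptors, were read beside a median of 0.02 over all tested genes and 81.7% called.

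**Figure D5:**
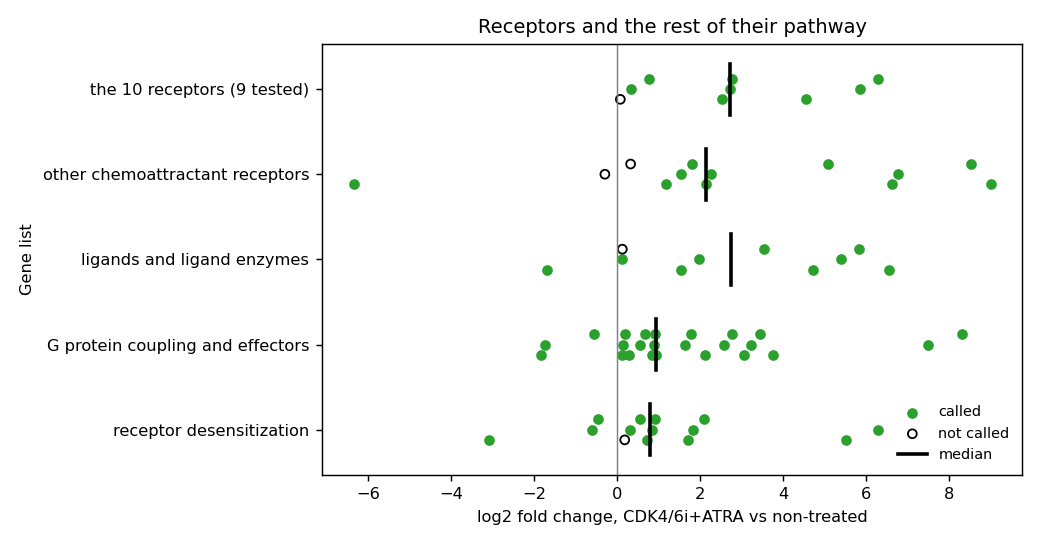
Log2 fold change of CDK4/6i+ATRA over non-treated libraries (horizontal axis) for each tested gene of the receptors and of the 4 lists (vertical axis), filled where called and open where not, with the median as a bar and CCL7 drawn at its bound of 3.53. The receptor median is 2.72, and GPR183 lies apart at -6.36.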

How the data were processed

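RNA-Seq of HL60 cells covered 12 libraries in 4 groups of 3. The submitters' processing notes name Trimmomatic 0.33, STAR 2.7.11a and hg38. The authors deposited raw counts per gene under the NCBI RefSeq annotation, whole numbers without normalization. The paper names RSEM as their source, whereas the table has the layout of featureCounts, and whether reads were counted by strand is not given in the sources used here. The deposited table's length column (other values, in bases) served only for levels per kb.

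The receptors and gene lists were chosen with earlier results of these data known. Named besides them are, per list, the 2 largest and 2 lowest changes with both drugs among called genes with a mean of at least 5 CPM, and the 3 nearest genes per receptor. Some genes that this rule covers are not reported here. CCL7, CCR7, ACKR3, MIF, CCL3, ALOX5, CXCL12 and CXCL1 were named after their values were seen. In R 4.3.3, filterByExpr kept 13318 genes and edgeR 4.0.16 (limma 3.58.1) fitted the 4 groups with TMM and a quasi-likelihood F test with 8 residual degrees of freedom. Genes with a Benjamini-Hochberg adjusted p under 0.05 over all tested genes were called. The common biological coefficient of variation was 3.70%. No pair of replicates was as close as sampling noise (chi-square per degree of freedom 1.83 to 6.49), so each library counted once. On simulated counts for 13009 genes, the test of CDK4/6i+ATRA against non-treated cells recovered 42 of 50 genes changed 1.5-fold and 47 of 50 changed 2-fold, with 7 false calls among 196. For the interaction (13027 genes) these were 37 and 43 of 50, with 11 false calls among 190. The simulations changed few genes, and only in the CDK4/6i+ATRA group. In the data 81.7% of tested genes were called for that group against non-treated cells and 51.4% for the interaction. The simulated figures therefore do not give the error rate where most genes change or where calls depend on the scaling. Intervals cover 95%, and the floor of 3 counts covers counting error only.

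The fits were repeated with DESeq2 1.42.0, with its size factors in edgeR, with unscaled library sizes, with no filter or at least 10 counts in every library, with a replicate block, on the compared groups alone, and without each library. Promoter sequences are RefSeq's (hg38). Figures used matplotlib 3.10.9.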

Additional observations from a re-analysis of the deposited data

Results flagged for a closer look

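For 6 of the 9 tested receptors the effect of ATRA differed between cells with and without CDK4/6i, by edgeR's test of the interaction itself. CXCR4 had the largest difference, -1.47 on the log2 scale (adjusted p = 7.26e-28), with ATRA raising it by 1.41 without CDK4/6i and leaving it at -0.06 with it. The difference was -1.08 for CXCR2 (adjusted p = 2.63e-15), from 0.66 to -0.42, and for CXCR1 it was -1.12 (adjusted p = 0.0373) at 14 to 53 counts per library. In the other direction, FPR2 had 0.71 (adjusted p = 6.42e-14), CCR1 0.38 (adjusted p = 0.000282) and LTB4R 0.35 (adjusted p = 0.0116). With library size alone FPR2 was at 0.40 and still called (adjusted p = 7.56e-07), whereas CCR1 (adjusted p = 0.58) and LTB4R (adjusted p = 0.855) were not called. LTB4R was also lost without the low-count filter (adjusted p = 0.0883) and in 3 of the 12 fits that left out 1 library, and CXCR1 in 7 of these 12. Over all tested genes 51.4% had a called interaction.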

How the results depend on the processing

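Library size alone in place of TMM moved the median of all genes for both drugs against no drug from 0.02 to -0.25 and that of the interaction from -0.02 to -0.34 (positive share of its calls 47.5% to 18.5%). The share of higher calls went from 53.0% to 31.6% against ATRA and from 49.8% to 36.7% against CDK4/6i, and the G protein and effector genes with both drugs against no drug went from 21 higher and 3 lower to 17 and 6. Of 9 reversals, 2 came from this setting, CXCR2 with both drugs against no drug (-0.20) and the C3AR1 interaction (-0.29), and 2 from leaving out the filter (-0.037 and -0.056). Leaving out 1 library at a time, CXCR2 with both drugs ranged from -0.0051 to 0.11, CXCR1 with CDK4/6i from -0.11 to 0.58 and the C3AR1 interaction from -0.028 to 0.11, of which none was called. The CDK4/6i+ATRA replicate 3 turned CXCR2, CDK4/6i replicate 2 turned CXCR1, and ATRA replicate 2, CDK4/6i replicate 3 or CDK4/6i+ATRA replicate 3 turned C3AR1. With at least 10 counts in every library only 5 genes of the other receptors were tested, of which 4 were called with ATRA, 5 with both drugs against each other group and 3 for the interaction. The same filter left 5 ligand genes, all 5 called with ATRA and with both drugs against each other group. Of the 10296 genes it left in all, 7588 were called with ATRA and 6261 for the interaction. With both drugs 8902 were called against no drug, 7926 against ATRA and 8619 against CDK4/6i. Beside such shares, counts out of 5 genes say little about the lists. Leaving out 1 library, the calls of the interaction ranged from 2 to 6 for the other receptors (5 with all libraries; 3 without non-treated replicate 2 or 3, 2 without CDK4/6i replicate 1) and from 5 to 8 for the genes that end receptor signals (8 with all; 5 without CDK4/6i replicate 3). Replicate numbers did not pair the libraries, since 0 of 18 same-numbered pairs correlated above 0.1 (-0.07 to 0.03) and 3 of 12 libraries matched best with their own number. With the replicate block 9, 8, 7, 9, 7 and 6 receptors were called in the 5 comparisons and the interaction, against 9, 8, 8, 9, 7 and 6 without it, the lost call being CXCR1 with both drugs (adjusted p = 0.0536). For the fold changes of single receptors, 967 values kept direction and side of the threshold, 29 lost and 8 gained a call, 2 of the gains being reversals under library size alone. Counts under about 50 limit CXCR1, the non-treated levels of FPR1 and C5AR1, and C5AR1 with CDK4/6i (36 to 45 counts), with the comparisons that use them.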
